A study of Mus musculus with 10 samples.

Results

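The collagen genes are the protein-coding mouse genes named Col, a number, a and a number in the GENCODE M21 annotation of build mm10. There were 44 such genes among 21938 protein-coding genes, of which 11 encode fibrillar chains, 6 encode the type IV chains of basement membranes and 27 belong to other types. ATAC-seq, in which the Tn5 transposase cuts open chromatin and the cut fragments are sequenced, was applied to immortalized mouse embryo fibroblasts whose growth depends on a degradable ASH2L protein. In all 10 libraries the endogenous Ash2l alleles had lost exon 4 through a Cre-ER recombinase, and a lentiviral FKBP-HA2-ASH2L fusion (an engineered FKBP12 domain, 2 HA tags and human ASH2L) replaced the product in 1 selected clone. The 5 groups, with 2 libraries each, were untreated cells, which per the methods received solvent, and cells given the PROTAC dTAG-13 for 30 min, 4 h, 8 h or 24 h to degrade the fusion. What the deposited list gives is the position of every accessible site found over the 10 libraries together. The list carries no value per library, so no difference between untreated and treated cells, no replicate error and no depth can be given, and each result describes the pool of treated and untreated cells.

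Collagens are triple helices of 3 alpha chains and are major proteins of the extracellular matrix. Fibroblasts are the main source of the fibrillar types, in which type I and type III chains form the bulk of a fibril and type V chains start its assembly. The type IV chains form the network of basement membranes, and their genes lie in head-to-head pairs that share the stretch between them. The remaining types decorate fibrils (FACITs), form beaded filaments (type VI), short-chain networks or anchoring fibrils, or span the cell membrane.

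The 44 genes had 77 sites within 1 kb of an annotated start site (called promoter sites here), 565 sites with their middle between the ends of a gene, and 975 sites in a gene or at most 50 kb from it. These are 975 of 153924 sites in the list. Sites are called distal when they lay more than 1 kb from any start site of any gene, which holds for 488 of the 565.

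The promoter sequences of 6 collagen genes with promoter sites are shown first, 5 of them because a site of more than 2 kb lay on them and Col6a1 because it was the only collagen promoter of this table with AP-1 letters. They run from 250 bases before to 50 bases after a start site and are from RefSeq (GRCm38.p6), whose table held 35 of the 44 genes. Capitals mark exact matches on either strand to the GC box (GGGCGG or CCGCCC), the CCAAT box (CCAAT or ATTGG), the TATA box (TATAAA) or the AP-1 motif (TGAGTCA or TGACTCA), and no 2 marked stretches overlap. Col1a2 is at chr6:4505368-4505667 (+), Col3a1 at chr1:45311288-45311587 (+), Col5a1 at chr2:27886175-27886474 (+), Col11a1 at chr3:114030290-114030589 (+), Col4a2 at chr8:11312555-11312854 (+) and Col6a1 at chr10:76725995-76726294 (-).
Col1a2: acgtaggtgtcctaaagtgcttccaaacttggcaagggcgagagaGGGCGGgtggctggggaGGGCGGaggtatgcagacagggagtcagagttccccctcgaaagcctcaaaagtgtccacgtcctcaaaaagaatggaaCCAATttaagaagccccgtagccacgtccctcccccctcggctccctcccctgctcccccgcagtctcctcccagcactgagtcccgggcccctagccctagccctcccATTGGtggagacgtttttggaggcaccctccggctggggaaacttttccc
Col3a1: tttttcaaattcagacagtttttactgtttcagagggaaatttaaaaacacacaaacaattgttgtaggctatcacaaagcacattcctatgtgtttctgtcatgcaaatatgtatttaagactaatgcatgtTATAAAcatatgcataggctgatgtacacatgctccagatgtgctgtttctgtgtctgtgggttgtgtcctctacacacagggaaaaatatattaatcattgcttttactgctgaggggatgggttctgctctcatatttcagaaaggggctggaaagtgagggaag
Col5a1: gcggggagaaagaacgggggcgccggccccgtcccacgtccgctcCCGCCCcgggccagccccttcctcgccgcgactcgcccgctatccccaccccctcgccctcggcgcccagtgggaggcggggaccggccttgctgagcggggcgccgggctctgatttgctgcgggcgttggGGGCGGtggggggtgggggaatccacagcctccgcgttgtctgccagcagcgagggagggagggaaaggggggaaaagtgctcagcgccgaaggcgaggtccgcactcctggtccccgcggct
Col11a1: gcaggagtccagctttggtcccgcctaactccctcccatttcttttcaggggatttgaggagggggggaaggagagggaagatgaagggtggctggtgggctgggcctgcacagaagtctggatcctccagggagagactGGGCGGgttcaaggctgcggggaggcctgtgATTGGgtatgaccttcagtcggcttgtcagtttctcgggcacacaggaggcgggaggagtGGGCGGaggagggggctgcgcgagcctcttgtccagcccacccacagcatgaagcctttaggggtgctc
Col4a2: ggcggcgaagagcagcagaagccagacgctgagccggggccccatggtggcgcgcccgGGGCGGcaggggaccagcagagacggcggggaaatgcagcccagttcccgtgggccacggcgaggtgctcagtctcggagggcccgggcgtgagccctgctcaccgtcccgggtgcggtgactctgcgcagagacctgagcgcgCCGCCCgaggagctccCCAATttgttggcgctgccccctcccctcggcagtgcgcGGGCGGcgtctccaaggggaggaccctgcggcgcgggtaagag
Col6a1: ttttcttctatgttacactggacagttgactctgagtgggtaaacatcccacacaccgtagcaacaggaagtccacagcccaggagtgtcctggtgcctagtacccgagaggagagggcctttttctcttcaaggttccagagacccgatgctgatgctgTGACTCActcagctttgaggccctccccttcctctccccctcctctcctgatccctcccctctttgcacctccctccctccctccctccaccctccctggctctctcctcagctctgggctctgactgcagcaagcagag
The start of Col4a1 lies on the other strand inside the Col4a2 stretch, since both starts are 21 bp apart. Col1a2 carried 2 GC boxes at -205 and -188 and 2 CCAAT boxes at -109 and 0, counted in bases from its start site, and Col3a1 carried none of these but a TATA box at -117. The 35 genes had 38 promoters in the table. GC box letters were present in 23 of these 38 and in 35.7% of all 32851 promoters. CCAAT letters were found in 13 of the 38, compared to 37.4% of all promoters, and TATAAA in 5 of the 38, compared to 13.6%. AP-1 letters occurred in 1 of the 38, at -90 to -84 of Col6a1, and in 5.20% of all promoters.

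To ask whether collagen promoters were accessible in these cells, promoter sites were counted. All but 1 of the 44 genes had a site within 1 kb of a start site. The share over all protein-coding genes was 70.8%, so the collagens stood above this background with 43 of 44. The 11 fibrillar genes (Col1a1, Col1a2, Col2a1, Col3a1, Col5a1, Col5a2, Col5a3, Col11a1, Col11a2, Col24a1 and Col27a1) and the 6 type IV genes (Col4a1 to Col4a6) all had one. Of the other types, 26 of 27 had one, namely Col6a1 to Col6a5, Col7a1, Col8a1, Col8a2, Col9a1, Col9a2, Col9a3, Col10a1, Col12a1 to Col20a1, Col22a1, Col23a1, Col25a1, Col26a1 and Col28a1. Col6a6, a chain of the beaded type VI filaments, had no promoter site, and the site nearest to its 5′ end had its middle at -8.08 kb. Just inside the limit was Col4a6, whose only promoter site did not reach its 5′ end and is the site shared with Col4a5.

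The count included genes that are known for tissues other than fibroblasts. Col2a1, the main chain of cartilage fibrils, had promoter sites of 1882, 1542 and 830 bp. Col10a1, a chain of growth plate cartilage, had a site of 265 bp, the middle of which lay 150 bp upstream of the start site. Col17a1, a hemidesmosome protein of epithelia, had sites of 484 and 187 bp. A promoter site in this list thus says that a site was found, not that the gene was expressed.

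Length and the number of annotated start sites both go with more promoter sites. The median collagen gene spanned 114 kb and had 4 start sites, compared to 17.4 kb and 3 start sites over all protein-coding genes. Over all coding genes of 20 kb or more, the medians were 49.3 kb and 5 start sites. Collagen genes are thus long, but do not have many start sites for long genes. Among genes with 4 or more start sites, 25 of 25 collagens and 91.3% of all genes had a promoter site. Among genes of 20 kb or more these were 39 of 40 and 84.6%. At the outermost 5′ end alone, 40 of 44 collagens had a site within 1 kb, compared to 66.2% of all genes, and Col6a6, Col9a1, Col25a1 and Col28a1 had none. In these last 3 genes the promoter site lay within 1 kb of an internal start site, with its middle 18312, 49263 and 168853 bp from the 5′ end. Several promoter sites per gene were common, with at least 2 in 22 of 44 collagens and in 21.7% of all genes. Among all genes of 20 kb or more, 3396 of 10156 had at least 2. Col1a2 had 6 within 1 kb of its 7 start sites.

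Most of these promoters lacked a CpG island, a stretch rich in CpG that marks most widely expressed genes. An island was found within 1 kb of a start site in 17 of 44 collagens, compared to 55.6% of all genes. The islands were at Col2a1, Col5a1 and Col27a1 among fibrillar genes, at Col4a1 and Col4a2 among type IV genes and at 12 of the 27 others (Col6a2, Col8a2, Col9a2, Col12a1, Col13a1, Col15a1, Col16a1, Col18a1, Col19a1, Col23a1, Col25a1 and Col26a1). All 17 had a promoter site, as had 96.0% of all genes with an island. Under stricter island criteria, 9 collagens (20.5%) and 25.3% of all genes had one, so that the gap to the background was narrower.

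Without an island the collagens and the background differed more. Of the 27 collagens without one, 26 had a promoter site, whereas 39.1% of all 9730 such genes did. Restricted to genes of 20 kb or more, these were 23 of 24 collagens and 56.4% of genes, and restricted to genes with 4 or more start sites they were 16 of 16 and 71.3%. When only the outermost 5′ end of genes of 20 kb or more was considered, they were 21 of 24 and 46.2%. The 26 genes include Col1a1 and Col1a2, the chains of type I collagen, Col3a1 and Col5a2, which are partners of type I in mixed fibrils, and Col6a1 and Col6a3.

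The width of promoter sites ranged from 242 bp at Col22a1 to 2801 bp at Col11a1 when the widest site of each gene was taken. The median was 1283 bp (95% interval from order statistics over genes, 1142 to 1510 bp), compared to 1412 bp over all genes with a promoter site. Fibrillar and type IV genes had medians of 1882 bp (778 to 2696 bp) and 1871 bp (1236 to 2655 bp). The other types had a median of 1154 bp (667 to 1444 bp). These intervals overlap. The type IV widths are those of sites shared by gene pairs (1236, 1871 and 2655 bp), each counted for both genes. The type IV interval is therefore the full range of these sites and does not rest on independent widths.

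A promoter site of 2 kb or more was listed for 8 of 44 collagens, a property of 9.86% of all genes. Among all genes of 20 kb or more, 1403 of 10156 had one. The 3 widest were those of Col11a1 (2801 bp, chr3:114029856-114032656), Col1a2 (2696 bp, chr6:4505227-4507922) and Col5a1 (2692 bp, chr2:27885538-27888229). They were followed by the site shared by Col4a1 and Col4a2 (2655 bp), and by those of Col27a1 (2307 bp), Col12a1 (2195 bp) and Col3a1 (2113 bp). Thus 5 of the 11 fibrillar genes, 2 of the 6 type IV genes and 1 of the 27 others, the FACIT gene Col12a1, were in this group. Col1a1 did not belong to it, since its start site lay in a site of 659 bp with a second of 583 bp downstream. Col1a1 and Col1a2 encode chains of the same protein, yet the widest promoter site of Col1a2 was several times as wide as that of Col1a1.

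**Figure D1:**
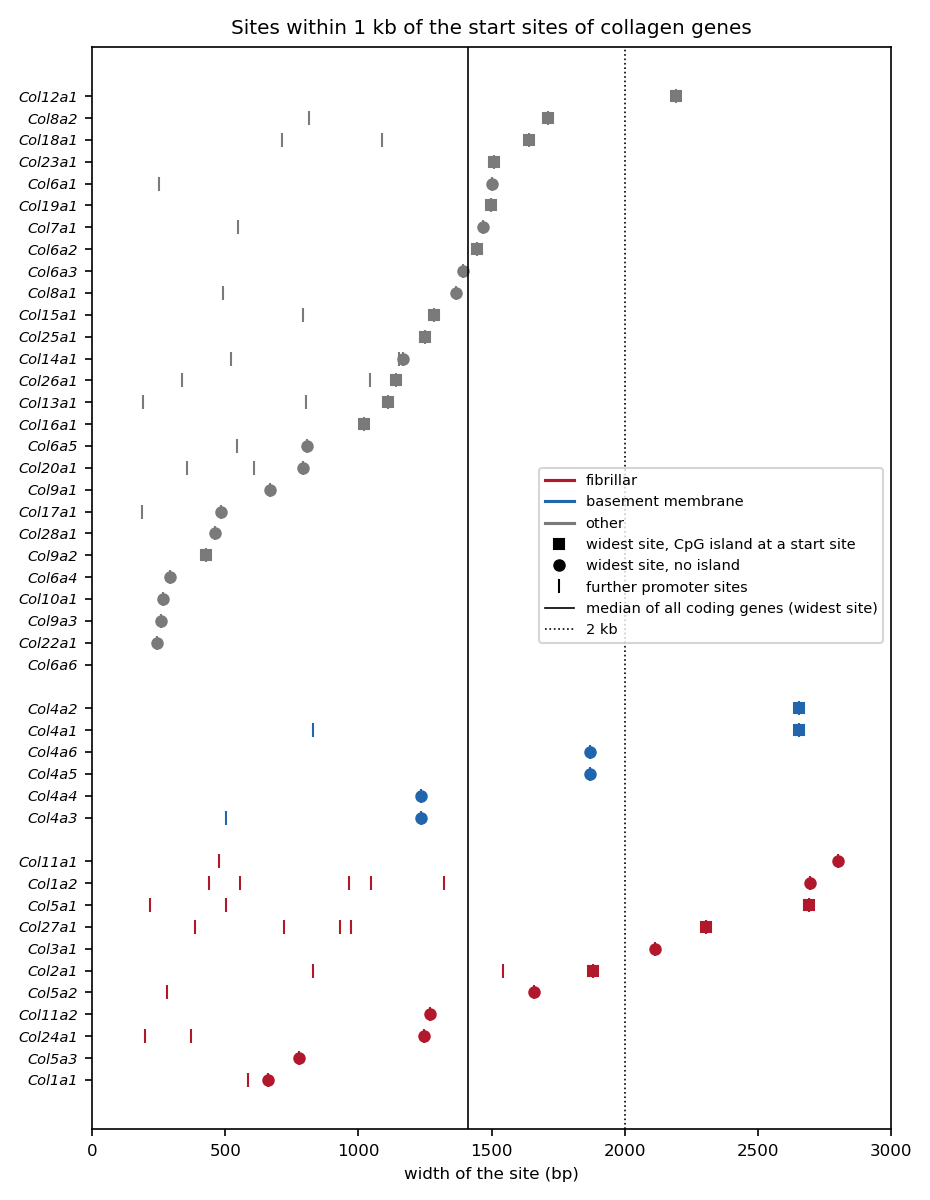
Widths in bp (horizontal axis) of the sites within 1 kb of a start site for each collagen gene (vertical axis), coloured by class. Squares and circles mark the widest site of genes with and without a CpG island, ticks mark further promoter sites, and the lines stand at the median of all coding genes (1412 bp) and at 2 kb. Fibrillar genes reach from 659 bp at Col1a1 to 2801 bp at Col11a1, and Col6a6 has no mark.

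Each head-to-head pair of type IV genes shared 1 promoter site. The 5′ ends of Col4a1 and Col4a2, the chains present in nearly all basement membranes, are 21 bp apart and lay within the site chr8:11311525-11314179, whose middle was 26 bp from the 5′ end of Col4a1. The 5′ ends of Col4a3 and Col4a4, chains of the mature kidney filter, are 72 bp apart and lay within a site of 1236 bp (chr1:82586308-82587543). The 5′ ends of Col4a5 and Col4a6 are 1309 bp apart, and their site of 1871 bp (chrX:141475053-141476923) covered the end of Col4a5 only. A site on a shared stretch cannot be assigned to either gene.

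Along the gene bodies, sites were dense in 6 fibrillar genes of 20 kb or more when all body sites were counted. The 44 collagens had a median of 11.2 sites per 100 kb of gene (8.39 to 15.4), compared to 7.40 over all protein-coding genes. Among genes of 20 kb or more, the medians were 10.5 for 40 collagens and 7.77 for all 10156 genes. The class medians were 20.6 for fibrillar genes (range 2.63 to 39.5), 9.49 for type IV genes (3.24 to 15.7) and 9.75 for the other types (0 to 24.2), so that the ranges overlapped. In this size class, the top 10.0% started at 15.7 sites per 100 kb, and 11 of 40 collagens were in it. These were 6 of 10 fibrillar genes, 1 of 6 type IV genes, Col4a1 at the threshold itself, and 4 of 24 others. The difference between the fibrillar and the type IV median was 11.1 sites per 100 kb, but it was 2.36 when sites near start sites were left out and 3.40 when only sites of at least the median width of 619 bp were used. Without sites near start sites, 13 collagens were in the top 10.0%, but Col1a2 (rank 2916 of 10156) and Col2a1 (rank 1696) were not. With only sites of at least the median width, 6 collagens were in it. Col3a1 (rank 3533), Col5a2 (rank 2189) and Col27a1 (rank 1041) were then outside it.

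**Figure D2:**
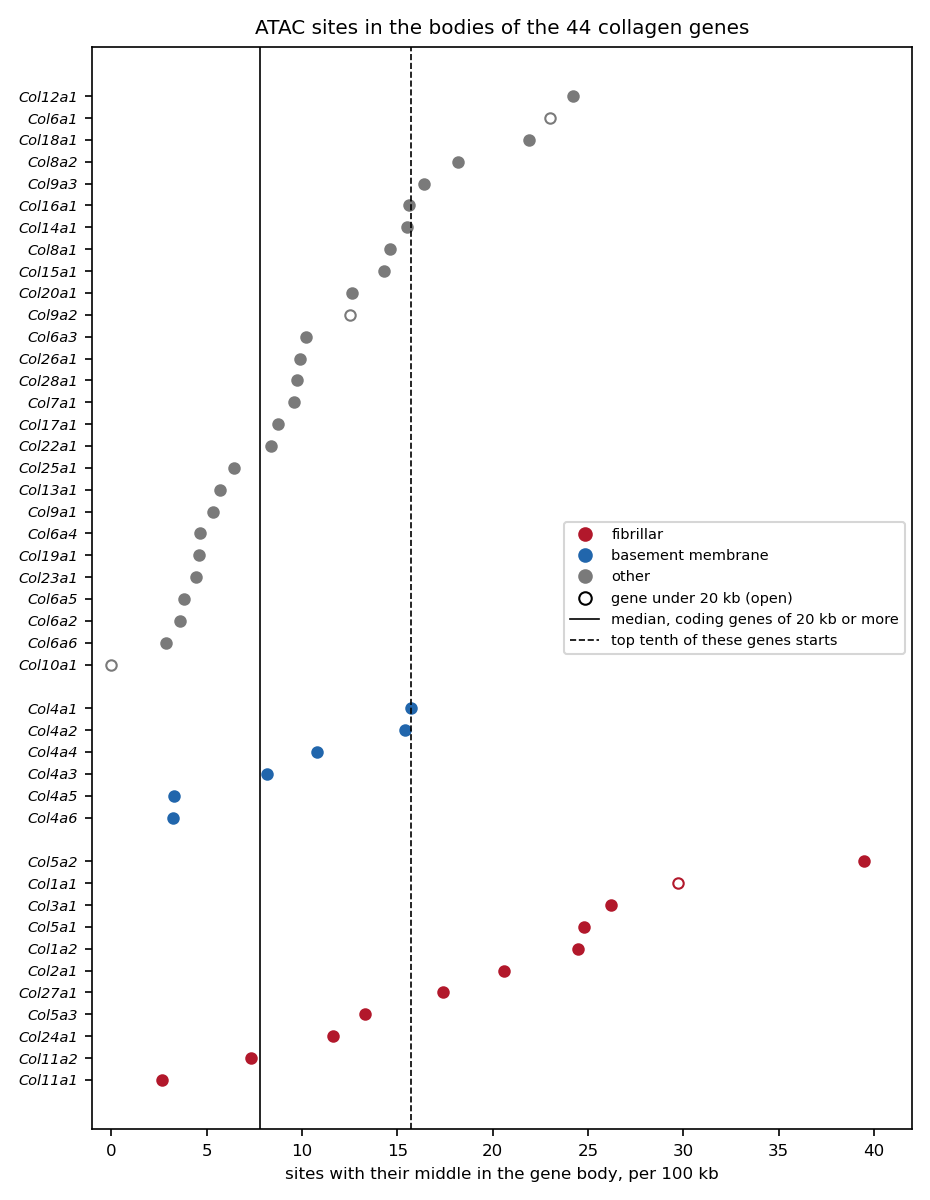
Sites with their middle in the gene body per 100 kb (horizontal axis) for the 44 collagen genes (vertical axis), coloured by class, with open circles for genes under 20 kb. The lines stand at the median (7.77) and at the start of the top 10.0% (15.7) of coding genes of 20 kb or more. Col5a2 lies farthest to the right at 39.5, while Col11a1 is the lowest fibrillar gene at 2.63.

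Col5a2, an alpha chain of type V collagen, had 51 sites in 129 kb, or 39.5 per 100 kb, which ranked 1 among the 10156 protein-coding genes of 20 kb or more. Up to 14 of its sites lay within 20 kb, and the median step from middle to middle was 2016 bp. The sites were narrow, with a median of 378 bp compared to 619 bp over the whole list, and together they covered 17.7% of the gene. The rank was 2 when neighbouring sites were merged, when any overlap with the gene counted or when sites near start sites were left out, but 2189 (6.98 per 100 kb) when only sites of at least the median width were used. Thus the density of Col5a2 rests on narrow sites.

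The dense region continued into Col3a1, which lies tail to tail with Col5a2 at a distance of 24614 bp and had 26.2 sites per 100 kb (10 sites, rank 63). The gap between the genes held 7 sites. Counted in windows of 100 kb, chr1:45300001-45400000 held 32 sites and chr1:45400001-45500000 held 35. Of all 26220 fully sequenced windows, which had a median of 5.00 sites, 1 and 0 held more, respectively. The windows to either side held 5 and 15 sites. Sites of Col3a1 were narrow as well (median 291 bp), and its density with sites of at least the median width was 5.24, compared to 4.00 for genes of 20 kb or more.

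Densities of the other chains of type I and type V collagen varied. Col1a1 spans 16.8 kb, had 5 body sites (29.7 per 100 kb) and was surrounded by 8 further sites upstream and 9 downstream within 50 kb. Col1a2 had 9 body sites in 36.7 kb (24.5 per 100 kb, rank 104), of which 3 were distal. Without sites near start sites its density was 8.17 (rank 2916), compared to 5.09 for genes of 20 kb or more. Most of its sites thus lay within 1 kb of annotated starts. Upstream of Col1a2 there were 5 sites, of which 2 exceeded 2 kb, at -15.5 kb (2357 bp, chr6:4488091-4490447) and at -47.4 kb (2092 bp, chr6:4456352-4458443). Col5a1, which pairs with Col5a2 in type V collagen, had 38 body sites in 153 kb (24.8 per 100 kb, rank 86) and 22.9 without sites near start sites (rank 38). Col5a3, the remaining type V chain, had 13.3 (rank 1798), and Col24a1, a fibrillar gene outside these types, had 11.6 (rank 2599).

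Fibrillar genes known for cartilage differed in density. Col2a1 had 20.6 body sites per 100 kb (rank 292) and was the collagen with the largest covered share of its body (23.5%), since its 6 sites had a median width of 1060 bp. Only 3 of these sites were distal. Without sites near start sites the density of Col2a1 was 10.3 (rank 1696), compared to 5.09 for genes of 20 kb or more. Col11a2 had 7.34 sites per 100 kb with 2 sites. Col11a1 combined the widest promoter site of the family with 5 sites in 190.2 kb, or 2.63 per 100 kb, the lowest density among fibrillar genes. Only Col11a1 and Col11a2 among the fibrillar genes lay below the median of 7.77.

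Among type IV genes, Col4a1 and Col4a2 had 18 and 21 body sites (15.7 and 15.4 per 100 kb), and their bodies and flanks of 50 kb shared 16 sites. Col4a3 and Col4a4 had 8.14 and 10.8 sites per 100 kb. Col4a5 and Col4a6 had 3.27 and 3.24, but they lie on X, where the median over genes of 20 kb or more was 3.73. Chromosome 15, which carries Col2a1, Col14a1 and Col22a1, had a median of 13.4, which was the reason to compare each gene with its own chromosome as well. In this comparison 26 of 40 collagens of 20 kb or more exceeded the median of their chromosome, and 27 exceeded the median over all chromosomes. By definition of a median, these counts are to be read against an even split of all genes.

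Of the other types, Col12a1, a FACIT that coats type I fibrils, had the highest density with 29 sites in 119.8 kb (24.2 per 100 kb, rank 113), 27 of which were distal. Col18a1, the precursor of endostatin, had 25 sites (21.9), and Col8a2, a short-chain collagen of the corneal endothelium, had 5 sites (18.2). Without sites near start sites, Col18a1 had 19.2 (rank 93) and Col8a2, with 3 distal sites, had 10.9 (rank 1466). Col14a1 had 33 sites and, owing to its length of 213 kb, a density of 15.5, just outside the top 10.0%, as were Col16a1 with 15.6 and Col4a2 with 15.4. Col9a3 was just inside with 16.4. The 3 genes of the main type VI filament differed, with 4 sites in 17.4 kb of Col6a1 (23.0), 1 site of 1444 bp in Col6a2 (3.59) and 8 sites in Col6a3 (10.2). The Col6a2 site is its promoter site. Distal sites alone were 2 in Col6a1 (11.5), 0 in Col6a2 and 6 in Col6a3 (7.69). The related genes Col6a4, Col6a5 and Col6a6 had 4.66, 3.83 and 2.85 with all body sites counted. Col10a1 was the only collagen without a site in its body, which spans 7.11 kb, and had 8 sites within 50 kb.

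**Figure D3:**
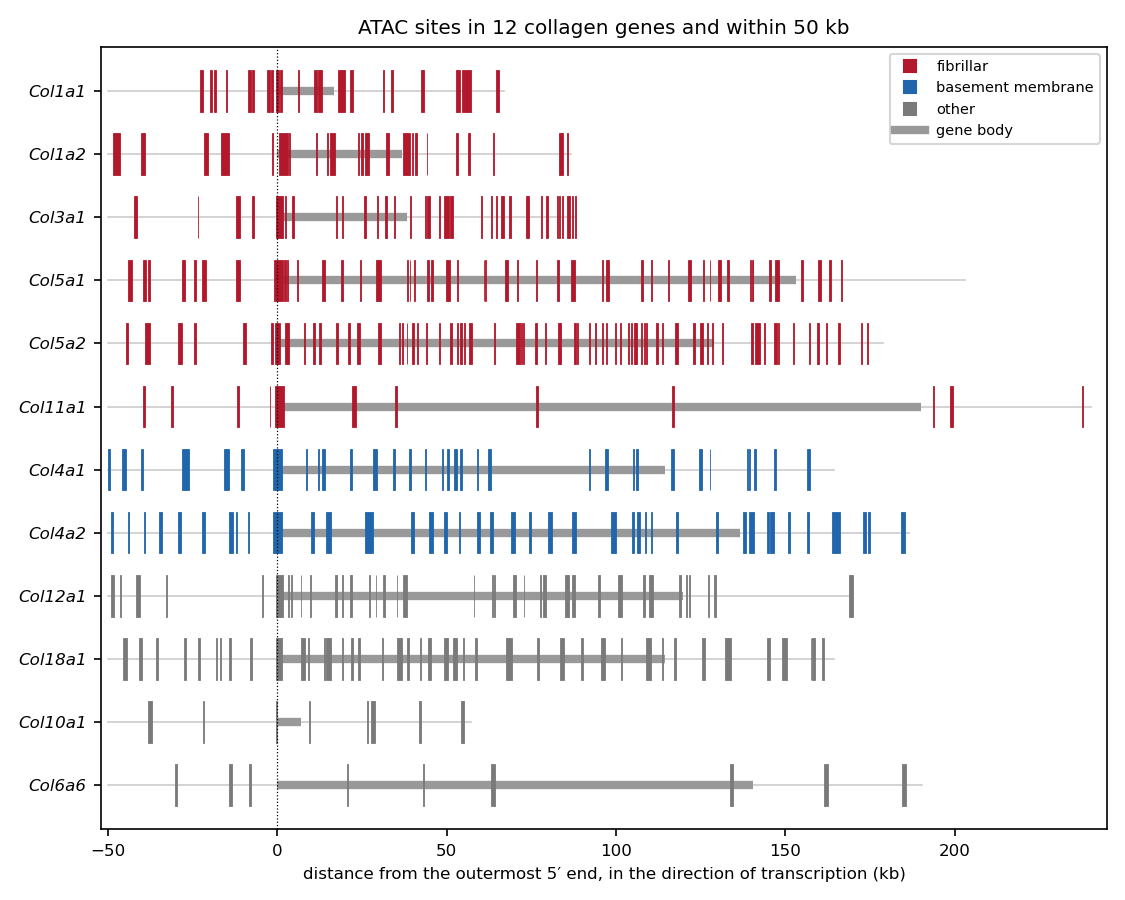
Sites (coloured boxes to scale) along 12 collagen genes, plotted by distance in kb from the outermost 5′ end in the direction of transcription, with grey bars for gene bodies and thin lines for the 50 kb on each side. Sites follow each other closely in Col5a2 (51 in the body) and Col12a1 (29), while Col11a1 shows 5 and Col6a6 shows 4, and the Col4a1 and Col4a2 rows show the same locus from both directions.

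Summed over the collagens, sites were found along the whole length of the genes. Of the distal body sites in collagens of 20 kb or more, 34.4% lay in the 5′ part, 31.1% in the middle and 34.4% in the 3′ part when genes were divided into 3 parts of equal length. All coding genes of this size had 32.4, 34.1 and 33.5%. Type IV genes had 38.7% in the 5′ part and 29.3% in the 3′ part, and single genes were less even. Col4a6 had 9 of its 10 body sites in the 5′ part, while Col22a1, a FACIT gene, had 1 of 20 there. The middle of 6.76% of the 488 distal body sites lay in an exon, while exons made up 6.49% of the collagen bodies. Over all coding genes, these were 6.60 and 9.06%. Single genes differed in both directions. In Col3a1, 4 of 9 distal sites had their middle in an exon, where exons make up 25.7% of the gene, and in Col5a1 these were 0 of 35 sites and 5.55%.

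Including 50 kb on each side, the collagens had a median of 11.5 sites per 100 kb, compared to 8.62 over all genes. The class medians were 15.9 (fibrillar), 8.65 (type IV) and 9.38 (other). Col5a2 had the most with 71 sites, of which 28 were also counted for its neighbour Col3a1. It was followed by Col5a1 and Col14a1 with 49 each, and Col7a1, which forms the anchoring fibrils of skin, had the fewest with 6.

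Motif letters were searched on both strands in the middle 200 bp of distal body sites. AP-1 letters were present in 12.9% of the 488 collagen sites (95% Wilson interval 10.2 to 16.2%), compared to 15.9% of the 59680 distal body sites of all coding genes. By class, these were 7.24% of 152 fibrillar sites (4.09 to 12.5%), 13.3% of 75 type IV sites (7.41 to 22.8%) and 16.1% of 261 other sites (42 sites). The intervals cover the sampling of sites, which are no replicates. The fibrillar share was 8.65% (4.62 to 15.6%) without Col5a2, where 2 of 48 sites had the letters. Among sites of at least the median width it was 12.5% (5.86 to 24.7%), compared to 17.9% over all coding genes, and among narrower sites 4.81%, compared to 14.2%.

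For the remaining motifs, collagen sites as a whole were close to the background, with CCAAT slightly above it in the middle 200 bp. TEAD letters (GGAATG) were found in 86 of 488 collagen sites (17.6%) and in 10161 of the 59680 distal body sites of all coding genes, CCAAT letters in 132 of 488 and 13788 of 59680 (23.1%), GC boxes in 3.48% and 3.43%, and the CTCF consensus in 1.84% and 2.96%. The background value was within the 95% interval in the case of TEAD (14.5 to 21.3%), GC box (2.19 to 5.51%) and CTCF (0.973 to 3.47%). It was just below the interval for CCAAT (23.3 to 31.2%), but the share over all distal sites (24.5%) was inside it. In whole sites, CCAAT letters were in 54.5% of collagen sites (50.1 to 58.9%) and 52.8% of all distal body sites. Among sites of at least the median width, they were in 22.2% of collagen sites and 24.1% of all distal sites. TATAAA letters were in 13.1% of collagen sites (10.4 to 16.4%) and in 14.7% of all distal body sites, with matches in 14 of 152 fibrillar sites (9.21%, 5.57 to 14.9%), 18 of 75 type IV sites (15.8 to 34.8%) and 32 of 261 other sites (12.3%). In whole sites they were in 49.3% of type IV sites and 36.4% of all distal body sites. EGR letters (GCGTGGGCG or GCGGGGGCG) occurred in 0 of 488 sites, for which the interval reaches 0.781%, and in 0.117% of all distal body sites.

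**Figure D4:**
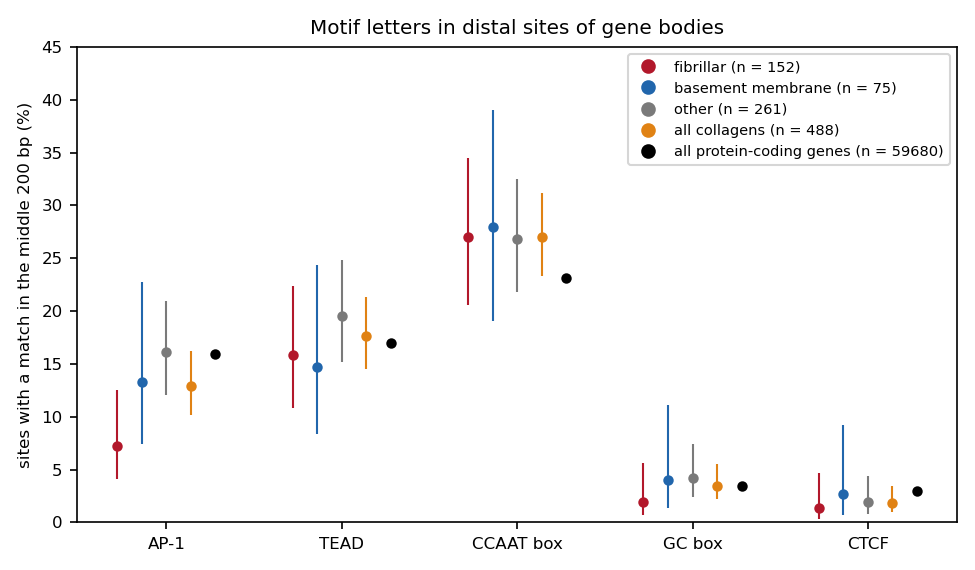
Percentage of distal body sites with motif letters in their middle 200 bp (vertical axis) for 5 motifs, with 95% Wilson intervals as bars. AP-1 in fibrillar genes (7.24%) is the point farthest below the black points for all coding genes (15.9%).

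Examples of AP-1 letters (capitals) in distal sites are shown for 3 genes with wide or shared sites. They are 61 bases each from the plus strand of GRCm38.p6, at chr6:4457324-4457384 in the site at -47.4 kb of Col1a2, at chr8:11268977-11269037 in a site of Col4a1 that is 43.8 kb from both 5′ ends of the pair, and at chr10:77098203-77098263 in a site of 1766 bp in Col18a1.
Col1a2 upstream: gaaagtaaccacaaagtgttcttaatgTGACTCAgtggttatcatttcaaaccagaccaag
Col4a1 body: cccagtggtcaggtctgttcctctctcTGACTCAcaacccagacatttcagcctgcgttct
Col18a1 body: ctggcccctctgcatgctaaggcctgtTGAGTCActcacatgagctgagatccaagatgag

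To see whether genes that act on collagen chains were accessible as well, 47 genes of the pathway were examined. Of these, 44 had a promoter site, to be read against the same 70.8% of all genes. This applied to 17 of 17 genes for folding and hydroxylation, among them P4ha1, a subunit of prolyl 4-hydroxylase, and Serpinh1, the collagen chaperone HSP47. It also applied to 9 of 9 genes for secretion and propeptide processing, 4 of 5 for cross-linking, 6 of 7 for fibril-associated proteins and 8 of 9 for receptors. Loxl2, a lysyl oxidase, Lum, which encodes lumican, and Gp6, a receptor of platelets, had none. A promoter site of 2 kb or more was listed for 10 of the 47 genes, with 3150 bp at Lox, the main cross-linking enzyme, and 2988 bp at Tll1, a propeptide protease, compared to 9.86% of all genes.

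As a check of the cell type, promoter sites were found at 10 of 10 fibroblast markers, 2 of which are Col1a1 and Col1a2 themselves, and at 1 of 4 blood markers. However, they were also found at 3 of 6 epithelial, 4 of 4 endothelial, 3 of 4 chondrocyte and 3 of 3 neuronal markers. A promoter site alone thus did not separate fibroblast genes from those of other cells. All of these counts are to be read against 70.8% of all protein-coding genes.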

How the data were processed

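ATAC-seq was performed on 10 libraries of fibroblasts in 5 groups. Per their methods the authors trimmed reads, aligned them to mm10 with BWA, merged replicates and called narrow peaks with MACS2. Versions, the peak threshold, any shift for the Tn5 cut and how sites of different samples were joined are not given in the sources used here, and each could change the number and width of sites. The deposited list gives chromosome, start and end of 153924 sites and no signal, so no test between groups could be made and depth is unknown. Of these sites, 153682 on chromosomes were used and 242 on other sequences were left out. Starts were read as counted from 0 and are printed counted from 1.

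Start sites came from all transcripts in GENCODE M21. Promoter sites shared 1 bp or more with the stretch 1 kb before to 1 kb after a start, and body sites had their middle in the gene. Densities are per 100 kb of sequenced gene. CpG islands were computed on sequence that is not soft-masked. They had 200 bp or more, GC content above 0.5 and CpG above 0.6 of its expected number, or for strict islands 500 bp, 0.55 and 0.65. Motifs were exact letters, and CTCF was searched by its consensus. The genes named were those the classes, the densest bodies, the widest promoter sites and the main fibroblast collagens gave. The members, classes, lists and alternatives were chosen with earlier results of these data known. Intervals are 95% Wilson intervals for shares and order statistics for medians, and describe genes or sites, not replicates. Interval counts, motif searches and island calls were tested on simulated data. The software was SciPy 1.17.1 and NumPy 2.4.6 under Python 3.11.15, with Matplotlib 3.10.9 for plots and Numba 0.67.0 for the island scan.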

Additional observations from a re-analysis of the deposited data

How the results depend on the processing

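Alternative values were computed for other windows, annotations, site widths, islands and motif searches. Of these 112 values, 88 stayed within the spread used as a limit (the 95% interval, or a factor of 1.5 for counts) and 24 moved beyond it. For 0 of them a change of direction was recorded, but most are counts, medians or shares without a sign, which cannot change direction. Set against all distal sites, motif shares did change sides in sites of at least the median width. AP-1 went from below (12.9% and 16.3%) to above (18.2% and 17.9%). CCAAT went from above (27.0% and 24.5%) to below (22.2% and 24.1%). The count of collagens with a promoter site was between 36 (sites of at least the median width, 65.5% of all coding genes) and 44 (window of 3 kb, 76.4%), and was 43 with RefSeq start sites, an alternative added after seeing the data. Using only sites of at least the median width gave 6 collagens in the top 10.0%, body medians of 5.18 per 100 kb for all and 4.10 for other types, 5.46 with 50 kb on each side, a difference of 3.40 between fibrillar and type IV medians and AP-1 letters in 18.2% of sites (17.9% of all distal sites of that width). That difference was 2.36 without sites near start sites. AP-1 letters were in 24.4% of whole sites (20.8 to 28.4%), where more bases were searched, and in 30.5% of whole distal body sites of all coding genes, which is outside this interval, whereas 15.9% was within the interval for the middle 200 bp. Strict islands left 9 collagens with an island, 20.5% compared to 25.3% of all genes. No paired analysis was possible because replicates cannot be told apart in the pooled list, and leaving out a replicate could not be tried. The number of sites depends on sequencing depth, which is unknown here, so that the lack of a site says only that none was listed.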
